A study of Mus musculus with 108 samples.

Results

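Fos, Fosb, Jun, Junb, Egr1, Ier2, Ier3, Atf3, Dusp1 and Hspa1a, immediate early and stress genes that cells switch on within the first stages of a stimulus and that are also known to be switched on while a tissue is being digested into single cells, were followed through the 28 groups of the series. They are 10 of the 49585 genes of the deposited count table, picked by symbol, and all were tested in each comparison given here. RNA was counted in bulk libraries of myeloid cells that had been sorted by flow cytometry from Balb/C athymic nude mice (CAnN.Cg-Foxn1nu/Crl), a strain that lacks a thymus and so has few T cells. The brains carried metastases of lung tumour cells, except those of the tumour-free animals. Unirradiated groups of a small and a large tumour stage held microglia (5 and 5 libraries), bone marrow-derived macrophages, here BMDM (5 and 5), inflammatory monocytes (4 and 5) and granulocytes (4 and 5). The same populations were taken from tumours not stratified by stage after whole-brain radiotherapy. It consisted of 5 doses of 2 Gy, sampled at day 3 (4 libraries of each population), day 5 (4) and day 10 (3), or of 1 dose of 10 Gy, sampled at day 3 (3). The zero point of the days is not given in the labels. The tumour-free groups were microglia titled 5x2 with day 3 or day 5 (3 libraries each), of which the radiotherapy field reads none, microglia whose titles name no dose either, here called untreated (4), and monocytes from peripheral blood (4). No label ties a library to an animal or says that animals were pooled. Tests therefore weigh differences against the spread among the deposited libraries, and that spread may be technical.

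Immediate early genes are transcribed by factors that already sit in the resting cell, so their RNA appears before any new protein has to be made, and it decays quickly once the stimulus ends. Fos and Fosb proteins pair with Jun and Junb proteins to form AP-1, a transcription factor that binds DNA as a dimer. Egr1 is a zinc finger transcription factor, and Atf3 is a stress-induced factor that can pair with Jun proteins. Ier2 is a nuclear protein of the same early wave, Ier3 is a survival-related target of NF-kB, and Dusp1 is the phosphatase that switches off p38, JNK and ERK kinases. Hspa1a encodes the inducible heat shock protein of the Hsp70 family. In microglia and other brain macrophages, warm enzymatic digestion of the tissue is a known inducer of these genes. The way the tissue was brought into suspension, its temperature and its duration are not given in the labels. Blood needs no digestion of tissue.

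Promoters are shown for Atf3, Ier3, Dusp1 and Jun, on which most differences below turn, for Fos and Junb as subunits of AP-1, and for Hspa1a with its near copy Hspa1b. The motifs marked are ones through which early signals and heat are known to act. RefSeq promoter sequences of GRCm38.p6 were used for 8 of the 10 genes. The 200 bases before the start are printed 5′ to 3′ on the strand of the gene, and capitals mark the cyclic AMP response element core TGACG, its longer form TGACNTCA, and the head-to-head heat shock pair GAANNTTC. Both strands were searched in the window from 250 bases before to 50 bases after the start, and the core and the longer form can overlap. The windows are Fos at chr12:85473690-85473889 and Ier3 at chr17:35821513-35821712 (plus strand), Jun at chr4:95052223-95052422, Junb at chr8:84978749-84978948, Atf3 at chr1:191183334-191183533, Dusp1 at chr17:26508473-26508672, Hspa1a at chr17:34972157-34972356 and Hspa1b at chr17:34959239-34959438 (all minus strand).
Fos: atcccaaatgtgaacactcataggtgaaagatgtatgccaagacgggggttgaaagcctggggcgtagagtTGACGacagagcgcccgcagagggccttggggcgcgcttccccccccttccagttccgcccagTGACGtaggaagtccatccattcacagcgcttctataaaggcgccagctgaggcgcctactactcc
Jun: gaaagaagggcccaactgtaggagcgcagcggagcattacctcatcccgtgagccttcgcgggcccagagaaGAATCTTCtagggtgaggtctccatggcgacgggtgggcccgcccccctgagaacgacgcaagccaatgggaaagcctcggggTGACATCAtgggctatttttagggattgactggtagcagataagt
Junb: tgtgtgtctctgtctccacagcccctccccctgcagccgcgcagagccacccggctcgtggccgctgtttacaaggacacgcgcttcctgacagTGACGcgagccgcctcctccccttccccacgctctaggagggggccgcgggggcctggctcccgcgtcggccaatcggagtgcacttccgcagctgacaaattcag
Atf3: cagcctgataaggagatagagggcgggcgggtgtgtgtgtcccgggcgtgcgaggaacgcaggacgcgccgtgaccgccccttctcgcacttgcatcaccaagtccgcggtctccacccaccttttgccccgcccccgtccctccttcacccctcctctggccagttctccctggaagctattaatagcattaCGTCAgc
Ier3: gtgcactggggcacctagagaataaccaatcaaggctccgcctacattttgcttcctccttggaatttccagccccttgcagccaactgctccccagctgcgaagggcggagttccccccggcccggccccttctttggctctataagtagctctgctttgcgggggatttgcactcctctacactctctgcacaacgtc
Dusp1: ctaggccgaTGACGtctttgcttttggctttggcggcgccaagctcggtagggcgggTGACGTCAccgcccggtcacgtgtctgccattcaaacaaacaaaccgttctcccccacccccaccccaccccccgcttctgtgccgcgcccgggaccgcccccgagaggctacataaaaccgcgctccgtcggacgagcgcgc
Hspa1a: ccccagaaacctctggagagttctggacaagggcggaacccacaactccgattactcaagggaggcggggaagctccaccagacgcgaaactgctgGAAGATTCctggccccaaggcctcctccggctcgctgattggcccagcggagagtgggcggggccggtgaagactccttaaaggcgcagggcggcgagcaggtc
Hspa1b: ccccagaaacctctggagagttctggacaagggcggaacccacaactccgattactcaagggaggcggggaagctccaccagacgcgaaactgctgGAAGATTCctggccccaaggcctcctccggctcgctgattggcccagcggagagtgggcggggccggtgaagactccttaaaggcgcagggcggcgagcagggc

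The Fos window held 2 copies of the core and the Junb and Fosb windows 1 each. Dusp1 held the palindrome TGACGTCA 143 bases before the start and a further TGACG 191 bases before it. Jun had the variant TGACATCA 45 bases before the start, and a GAATCTTC pair 128 bases before it. Atf3 had CGTCA, the core on the opposite strand, 7 bases before the start, and Ier3 had none of these motifs. In Hspa1a and its neighbour Hspa1b the pair GAAGATTC lay 104 bases before the start, and the printed windows of both genes were identical at 199 of 200 bases. Of 32851 promoters of the same length, 20.8% held the core, 8.83% the longer form and 7.86% the head-to-head heat shock pair. The AP-1 site TGACTCA (5.20% of promoters), the CArG box (1.63%), the Egr site GCGTGGGCG (0.612%) and the tail-to-tail heat shock pair TTCNNGAA (8.52%) were in none of the 8 windows. These matches describe the letters of the windows, not sites shown to be bound, and motifs outside the windows are not seen. The start is that of the RefSeq promoter entry. For Atf3 and Dusp1 the printed window lies inside the annotated gene, whose 5′ end is at chr1:191218039 and chr17:26562128. Sequence before those ends was not searched. Egr1 and Ier2 have no window here: no promoter entry was found for Ier2, and Egr1 was left out of the search. The motif results therefore say nothing about either gene.

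Total counts per library ran from 985423 to 18642747. By criteria set after seeing the data, 12 libraries were doubtful (under 3000000 counts, or over 30000 or under 10000 genes with a count), among them 3 of the 4 blood monocyte libraries, 2 tumour-free and 2 small-stage microglia libraries. A further mark was a share of ribosomal protein counts at least 1.5 times the group's median, found in 20 libraries, of which 16 carry the highest number of their group. Defining markers were present as labelled in the small-stage groups: P2ry12 averaged 1652 CPM in microglia, Ccr2 795 CPM in BMDM and 2232 CPM in monocytes, and S100a8 3192 CPM in granulocytes, where P2ry12 still had 314 CPM. Blood monocyte libraries also held a sum of 994 to 6465 CPM over 3 erythroid markers and 48.7 to 1605 CPM over 3 T and NK cell markers. In bulk libraries, fewer cells of a type and less RNA per cell cannot be told apart.

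Levels are given in CPM, counts scaled to the library total after TMM normalization over all libraries. Across the 28 group means, 9 of the 10 genes had their lowest level in blood monocytes, and the remaining gene, Dusp1, was lowest in tumour-free microglia titled 5x2 day 5. Granulocytes at day 10 after 5 doses of 2 Gy had the highest means of Fos, Junb, Ier3 and Dusp1, and a microglia group had the highest of Fosb, Jun, Ier2, Atf3 and Hspa1a. Egr1 was highest in large-stage granulocytes. The span between the highest and the lowest group differed by gene: Ier2 had the narrowest, at 1274 ± 142 CPM in microglia 3 days after 10 Gy and 336 ± 166 CPM in blood monocytes (SD, n = 3 and 4). Ier3 reached 1918 ± 383 CPM in granulocytes at day 10, against 38.9 ± 18.5 CPM in blood monocytes (SD, n = 3 and 4). Jun was highest in tumour-free microglia, at 2031 ± 595 CPM, and blood monocytes had 46.3 ± 12.3 CPM (SD, n = 4 each). When the 28 means of a gene are put in order, most neighbours lie closer than the larger of their SDs: 27 of 27 neighbouring pairs for Dusp1 and Hspa1a, 26 for Fos, Fosb, Junb, Egr1 and Ier2, and 25 for Jun, Ier3 and Atf3. The step from the lowest group to the next exceeded the SD for Fosb, Jun, Junb and Ier3.

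**Figure D1:**
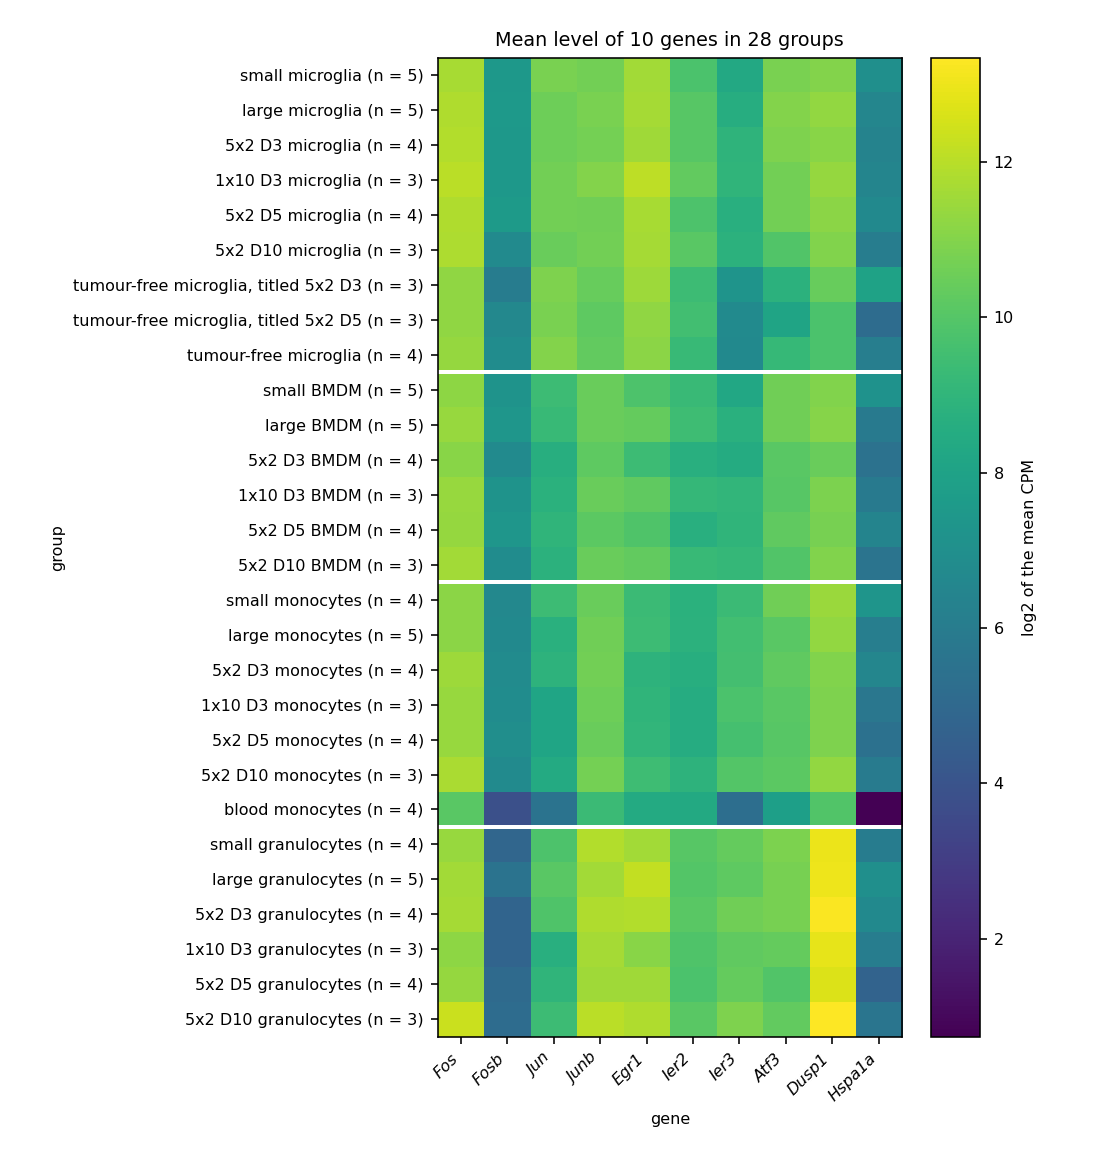
Colour gives the log2 of the mean CPM of each of the 10 genes (columns) in each of the 28 groups (rows, with the number of libraries), with white lines between populations. The row of blood monocytes is the darkest in 9 of 10 columns, and Dusp1 is brightest in the granulocyte rows.

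Divided by exon length, which allows levels to be set against each other between genes, Fos led in unirradiated microglia at 1483 CPM per kilobase, followed by Atf3 at 895, Junb at 743, Egr1 at 697 and Dusp1 at 691 CPM per kilobase. In unirradiated granulocytes the order was headed by Dusp1, at 2504 CPM per kilobase, with Junb at 1494 and Fos at 1247. Fosb and Hspa1a had the lowest per-length levels in microglia, at 29.0 and 37.8 CPM per kilobase. Hspa1a is uncertain throughout, since its longest transcript and that of Hspa1b were identical at 2537 aligned bases (85.5%) and reads can be shared between them. In the GRCm38 annotation, Atf3 (ENSMUSG00000026628) spans chr1:191170296-191218039, Ier3 (ENSMUSG00000003541) spans chr17:35821684-35822923, Jun (ENSMUSG00000052684) spans chr4:95049034-95052222 and Dusp1 (ENSMUSG00000024190) chr17:26505590-26562128. Jun, Junb, Atf3, Dusp1 and Hspa1a overlap another annotated gene, among them Junos with Jun, Prdx2 with Junb and Ergic1 with Dusp1, these 3 on the opposite strand, and whether counting used the strand is not given in the sources used here. Dusp1 also overlaps 2 annotated genes on its own strand, which counting by strand does not separate.

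Microglia from brains with metastases had more Atf3, Ier3 and Dusp1 RNA than microglia from tumour-free brains, at both stages. At the large stage Ier2 was called as higher too, but this call depended on scaling and method. Of the 10 genes, 3 were higher and 0 lower at the small stage (15.4% of all tested genes were called, 7.55% as higher and 7.82% as lower), and 4 were higher and 0 lower at the large stage (31.9% of genes called, 11.7% as higher and 20.2% as lower). With the other scaling, RLE, all genes shifted at the median by -0.19 at the small and -0.25 at the large stage (log2), and higher genes made up 33.9% and 23.4% of all calls, against 49.1% and 36.7% with TMM. Calls here and below are by edgeR's quasi-likelihood test at a Benjamini-Hochberg adjusted p under 0.05 over all genes. The median log2 fold change of the 10 genes was 0.54 and 0.55 at the small and large stage, beside -0.025 and -0.26 for all genes.

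Among the AP-1 subunits, none was called at either stage. Fos had 1873, 2434, 2475, 4649 and 5109 CPM in small-stage microglia, against 1513, 2835, 2892 and 3204 CPM in tumour-free microglia, with overlapping ranges and a log2 fold change of 0.33 ± 0.27 (SE). Junb had 1438, 1519.6, 1838, 1999 and 2141 CPM in large-stage microglia, against 1041, 1079.6, 1369.8 and 1554 CPM in tumour-free microglia, a log2 fold change of 0.46 ± 0.21 (SE; edgeR adjusted p = 0.0910). With a term for ribosomal-high libraries in the fit it passed, at 0.53 (log2; edgeR adjusted p = 0.0463). Jun was the only member with a lower mean than in tumour-free cells at both stages. It had 836, 1072, 1417, 1465 and 2659.7 CPM in large-stage microglia, against 1337, 1915, 2091 and 2781 CPM in tumour-free microglia. The ranges overlapped, and the log2 fold change of Jun was -0.49 ± 0.30 (SE) with an adjusted p of 0.209 in edgeR. Under RLE scaling, in DESeq2 and without large-stage library 4 the lower value of Jun passed, with log2 fold changes of -0.79, -0.79 and -0.81 and adjusted p of 0.0475, 0.0400 and 0.0412. Fosb had 91.8 to 250.0 CPM at the small stage and 145 to 241 CPM at the large stage, against 31.1 to 237 CPM in tumour-free libraries. It passed only without the doubtful libraries, at log2 fold changes of 2.42 and 2.22 (edgeR adjusted p = 0.0159 and 0.00998), a selection that leaves 2 tumour-free libraries.

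Atf3 had 1448, 1679, 1860.2, 1959.8 and 2014 CPM in the small-stage and 1004, 1588, 1941, 2262 and 3534 CPM in the large-stage libraries, against 329, 456, 696 and 817 CPM in tumour-free microglia. Every tumour library lay above every tumour-free library, and the log2 fold changes were 1.65 ± 0.33 and 1.81 ± 0.33 (SE; edgeR adjusted p = 8.53e-04 and 2.27e-04). The Atf3 calls held in all 17 alternative settings at each stage. Ier3 had 190.4, 191, 284, 374 and 601 CPM in small-stage and 226, 371, 374, 423 and 516 CPM in large-stage microglia, against 78.6, 78.8, 114 and 154 CPM in tumour-free microglia. The groups did not overlap, with log2 fold changes of 1.62 ± 0.36 and 1.81 ± 0.36 (SE; edgeR adjusted p = 0.00255 and 6.48e-04). Dusp1 had 1254, 1632, 2032, 2241 and 3166 CPM at the small and 1638, 1971, 2453, 3132 and 3347 CPM at the large stage, against 555, 939, 968 and 1075 CPM in tumour-free cells. Here too every tumour library exceeded every tumour-free one, with log2 fold changes of 1.23 ± 0.30 and 1.47 ± 0.30 (SE; edgeR adjusted p = 0.00582 and 8.61e-04). The share of all genes whose groups do not overlap was not determined. At the small stage the Ier3 and Dusp1 calls were lost when edgeR fitted the compared groups alone (edgeR adjusted p = 0.0538 and 0.0657).

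Egr1, Ier2 and Hspa1a overlapped between the groups at the large stage. Egr1 had 2049, 2953, 3475, 3573 and 3810.4 CPM in large-stage microglia, against 1619, 2250.3, 2595 and 2771 CPM in tumour-free microglia, a log2 fold change of 0.43 ± 0.22 (SE; edgeR adjusted p = 0.123). Ier2 at the large stage had 756, 960.0, 968, 1235 and 1376 CPM, against 440.2, 565, 590.0 and 806 CPM in tumour-free microglia, with 4 of 5 large-stage libraries above all tumour-free ones. Its log2 fold change was 0.78 ± 0.25 (SE; edgeR adjusted p = 0.0205), and the call was lost in 5 of 17 settings. With RLE scaling the value was 0.48 (edgeR adjusted p = 0.156) and in DESeq2 0.48 (DESeq2 adjusted p = 0.152). The call also failed with the compared groups alone (edgeR adjusted p = 0.155) and without tumour-free library 4 or large-stage library 2. Hspa1a ranged over 85.7 to 168 CPM at the small stage and 43.9 to 224 CPM at the large stage, against 15.1 to 179 CPM in tumour-free microglia, and was called at neither stage. Without tumour-free library 4, the one with the highest Hspa1a of its group, the small-stage value was 1.92 (log2) with an edgeR adjusted p of 0.0182.

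In a list of 25 other immediate early genes, 13 rose and 0 fell at the small stage and 15 rose and 0 fell at the large stage, with medians of 1.21 and 1.23 (log2). The smallest adjusted p at both stages belonged to Nr4a1, an orphan nuclear receptor, at 3.37 ± 0.33 (SE) and 3.36 ± 0.33. Gadd45b, a stress-induced growth arrest gene, rose by 3.14 ± 0.37 and 3.04 ± 0.37, Dusp5, a phosphatase of ERK, by 3.66 ± 0.44 and 3.72 ± 0.44, and Nfkbiz, an NF-kB cofactor, by 2.17 ± 0.26 and 2.20 ± 0.26, all on the log2 scale. Of 10 heat shock genes, edgeR called 0 at the small stage (3 at an unadjusted p under 0.05) and 2 were higher at the large stage, Dnajb1 (0.70 ± 0.23) and Hspd1 (1.01 ± 0.35). Other cell markers moved with this comparison. The sum of 6 astrocyte markers was 12.6 to 71.2 CPM at the small and 14.7 to 155 CPM at the large stage, against 265 to 610.4 CPM in tumour-free microglia. That of 5 oligodendrocyte markers was 166 to 213 CPM at the small and 177 to 258 CPM at the large stage, against 326 to 420.0 CPM in tumour-free microglia. That of 5 macrophage markers was 132 to 559 CPM at the small and 150.0 to 664 CPM at the large stage, against 50.1 to 271 CPM in tumour-free microglia. Of their genes, 1 of 6 astrocyte and 1 of 5 oligodendrocyte markers had a higher mean in tumour microglia at either stage, and 2 and 5 of 5 macrophage markers at the small and large stage. None of these 3 lists had a gene at 0 in every library of a group. The sum of 7 granulocyte markers was 733 to 1334 CPM at the small and 659.7 to 1081 CPM at the large stage, against 428 to 773 CPM in tumour-free microglia, with 2 of 7 higher on average at either stage and Ly6g at 0 in all tumour-free libraries. The sum of 5 dendritic cell markers was 21.8 to 35.6 CPM at the small and 10.9 to 29.1 CPM at the large stage, against 10.7 to 13.3 CPM in tumour-free microglia, with 5 and 3 of 5 higher on average. The sum of 7 microglia markers was 7176 to 15045.5 CPM at the small and 8196 to 12684 CPM at the large stage. Tumour-free microglia had 7280 to 18242 CPM, and 1 of 7 was higher on average in tumour microglia at either stage. That of 5 neuron markers was 1.95 to 25.7 and 2.84 to 25.1 CPM, against 8.29 to 129.5 CPM in tumour-free microglia, with 0 of 5 higher. The part of all these markers in the result was not tested.

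**Figure D2:**
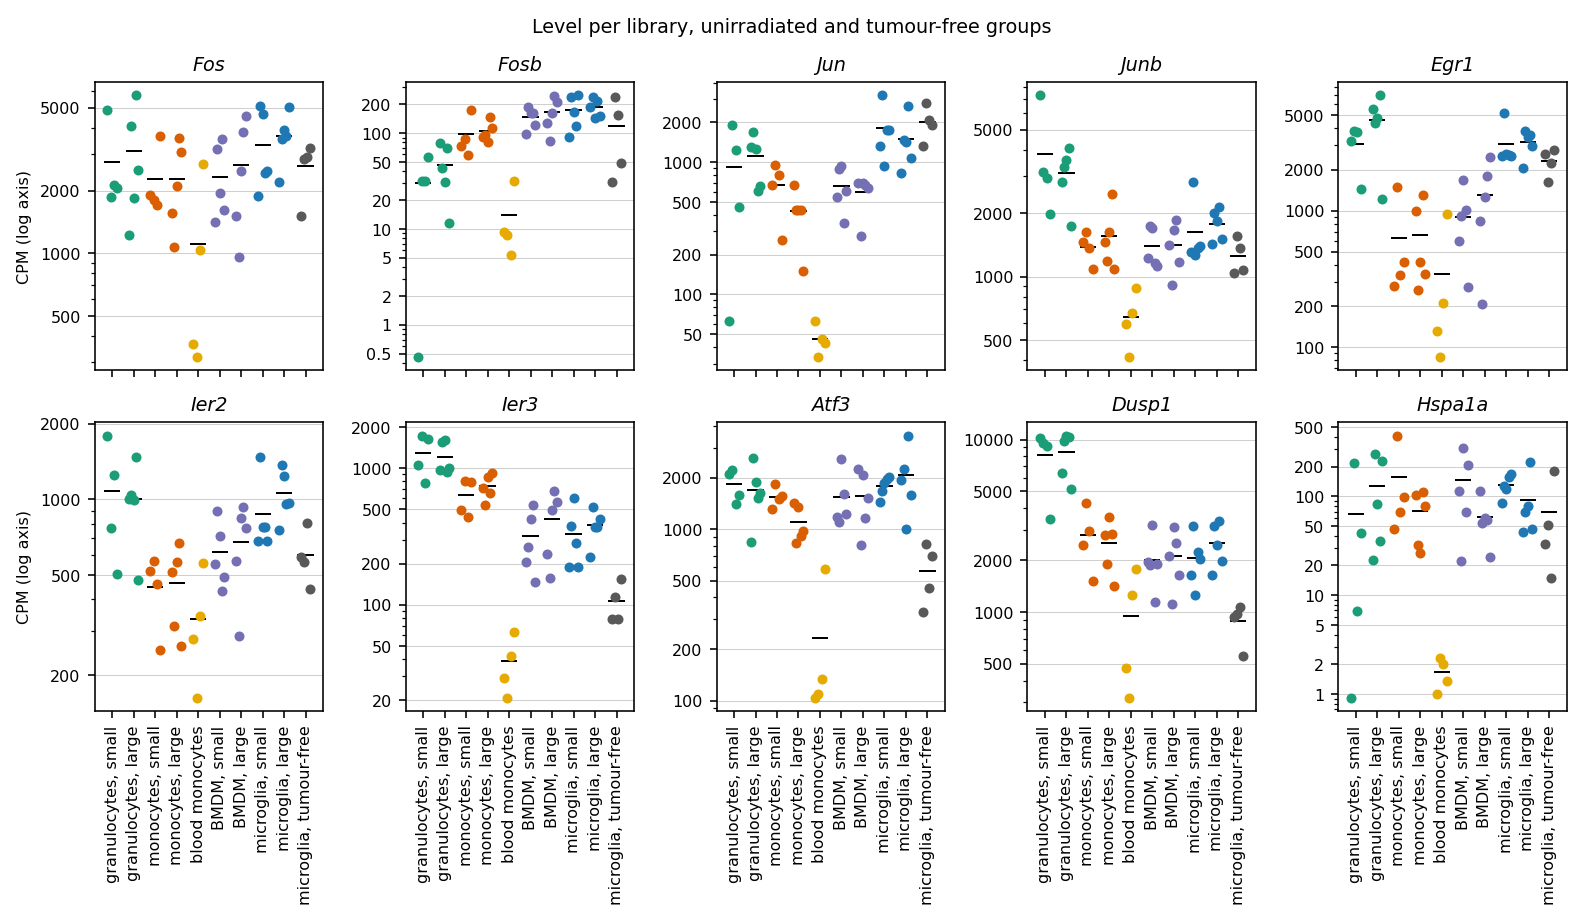
Each point is the CPM (log axis) of one library for one of the 10 genes, for the unirradiated groups of tumour-bearing brains, blood monocytes and tumour-free microglia, and lines give group means. Blood monocytes lie at the bottom in most panels, and tumour-free microglia lie below tumour microglia for Ier3, Atf3 and Dusp1 but not for Jun.

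The tumour-free microglia titled 5x2 did not differ detectably from the untreated tumour-free microglia in any of the 10 genes by edgeR (0 called of 10 in each, with 1.91% of all genes called for day 3, 0.825% as higher and 1.09% as lower, and 1.35% for day 5, 0.795% as higher and 0.552% as lower). At an unadjusted p under 0.05 there was 1 gene in each, and DESeq2 called those same genes, Hspa1a at day 3 and Atf3 at day 5. Atf3 had 407, 462 and 499 CPM in libraries titled day 3 and 191, 252 and 388 CPM in those titled day 5, against 329, 456, 696 and 817 CPM in untreated tumour-free microglia. All of these values are below the lowest Atf3 value of the unirradiated tumour microglia. The log2 fold change of Atf3 was -0.40 ± 0.36 for day 3 and -1.12 ± 0.37 for day 5 (SE; edgeR adjusted p = 0.504 and 0.0803), and without untreated library 1 that of day 5 was -1.36 with an adjusted p of 0.0291. Hspa1a had 81.4, 101 and 596 CPM in libraries titled day 3, against 15.1, 33.3, 51.8 and 179 CPM in untreated tumour-free microglia, and 1 library in each group stood far above the rest. Without untreated library 4 its log2 fold change was 2.85 (edgeR adjusted p = 0.0178), against 1.80 ± 0.62 (SE; adjusted p = 0.0827) with all libraries.

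Monocytes from tumour-bearing brains had more of nearly all of these RNAs than blood monocytes, and the differences were far larger for some members than for others. Called as higher were 8 of the 10 genes and as lower 0, all but Egr1 and Ier2, in a comparison in which 55.3% of all genes were called (11.6% higher and 43.7% lower). The median log2 fold change of the 10 genes was 1.89 and that of all genes -1.18, and with RLE the median over all genes shifted by a further -0.59. The tissue of origin, the tumour and library quality differ together between these groups and cannot be told apart. Of the 4 blood libraries 3 were doubtful. Without the doubtful libraries the fold changes of Fosb, Junb, Atf3 and Dusp1 were smaller, and that of Fos was -0.24 (log2).

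Jun had the lowest value of 151, a median of 436 and a highest value of 947 CPM in the 9 tumour monocyte libraries, against 33.5, 43.0, 45.7 and 62.9 CPM in blood monocytes. The groups did not overlap, at a log2 fold change of 3.38 ± 0.39 (SE; edgeR adjusted p = 3.89e-07). Ier3 had 440.3, 720.3 and 916 CPM as its lowest, median and highest value in tumour monocytes, against 20.9, 29.1, 42.0 and 63.4 CPM in blood monocytes, a log2 fold change of 4.01 ± 0.38 (SE; adjusted p = 1.59e-08, edgeR). Hspa1a had 26.4, 79.7 and 412 CPM (lowest, median, highest) in tumour monocytes, against 1.01, 1.34, 1.99 and 2.33 CPM in blood monocytes, with 4, 10, 18 and 17 raw counts in libraries 1 to 4. All 9 tumour libraries were above all blood libraries for Hspa1a, at 5.81 ± 0.76 (log2, SE; edgeR adjusted p = 2.63e-06). These 3 calls held in all 21 alternative settings.

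Fosb (2.74 ± 0.37), Atf3 (2.40 ± 0.36), Junb (1.07 ± 0.25) and Dusp1 (1.37 ± 0.37) were called too (log2 fold changes, SE). The groups did not overlap for the first 3 of them, and the share of all genes without overlap was not determined. Blood monocyte library 4 stood apart from the other 3 in several of these genes. Atf3 had 828, 1348 and 1848 CPM (lowest, median, highest) in tumour monocytes, against 104, 108.4, 133 and 585 CPM in the 4 blood libraries, the last of these in library 4. Fos had 1069, 1899 and 3656 CPM (lowest, median, highest) in tumour monocytes, against 317, 365, 1037 and 2698 CPM in blood monocytes, again highest in library 4. Library 4 lay above 6 of the 9 tumour libraries for Fos, and the Fos call (log2 fold change 0.95 ± 0.41, SE; edgeR adjusted p = 0.0478) was kept in 9 of 21 settings. The sum of the 5 monocyte markers was 4825 to 9769 CPM in tumour monocytes, against 7308 CPM in blood library 4, the highest of its group, and 1546, 799 and 2224 CPM in blood libraries 1 to 3, all doubtful. Blood library 4 also had the highest ribosomal share of its group, 1.42%.

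The fit against library 4 alone leaves 1 blood library, whose spread is taken to be that of the other groups, so only fold changes are given. Jun, Ier3 and Hspa1a stayed at or above 2.91, 3.45 and 5.28 (log2) in every setting, this one included. Against library 4 alone, Fosb, Junb, Atf3 and Dusp1 were at 1.68, 0.75, 1.18 and 0.61 (log2), and Fos turned to -0.24. Without library 4, which leaves 3 blood libraries that were all doubtful, Egr1 and Ier2 were called as well. They were at 2.16 and 0.78 (log2; edgeR adjusted p = 0.00219 and 0.0230). Egr1 had 260.4, 418 and 1488 CPM (lowest, median, highest) in tumour monocytes, against 84.5, 132, 211 and 946 CPM in blood monocytes. Sums of 3 erythroid, 3 T and NK cell and 4 B cell markers moved with this comparison as well, at 0 to 12.7, 0 to 25.5 and 0 to 16.4 CPM in tumour monocytes, against 994 to 6465, 48.7 to 1605 and 66.7 to 286 CPM in blood monocytes. All 10 markers of the 3 lists had a lower mean in tumour monocytes. Microglia and macrophage markers moved the other way. The sum of 7 microglia markers was 1020.5 to 2033 CPM in tumour monocytes, against 285 to 566 CPM in blood monocytes, without overlap, and that of 5 macrophage markers was 3707 to 7649 CPM in tumour monocytes, against 719 to 3862 CPM in blood monocytes. A higher mean in tumour monocytes was found for 5 of 7 microglia and 4 of 5 macrophage markers. None of the markers of these 5 lists was at 0 in every library of a group, and their part in the result was not tested.

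Of the other immediate early genes, 24 of 25 could be tested, and 17 rose and 1 fell in tumour monocytes. Gadd45b (4.05 ± 0.38), the orphan nuclear receptors Nr4a2 (4.01 ± 0.39) and Nr4a3 (3.28 ± 0.51), and Socs3 (2.71 ± 0.37), an inhibitor of cytokine signalling, had the smallest adjusted p (log2 fold changes, SE). Of 10 heat shock genes 3 rose and 0 fell. Hspa1b, the near copy of Hspa1a, stood at 5.07 ± 0.81, Dnajb1, a co-chaperone, at 0.75 ± 0.22 and Hsp90aa1 at 0.83 ± 0.27.

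Within unirradiated tumours, the 4 populations differed in which members they held most of. Microglia were highest in Jun and granulocytes in Dusp1, Ier3 and Junb, while Egr1 was high in both and low in monocytes. Compared with microglia, BMDM had 0 genes higher and 3 of 10 lower, Jun, Egr1 and Ier2 (29.9% of all genes were called, 16.1% as higher and 13.8% as lower). Monocytes had 1 higher and 5 lower than microglia (48.6% of genes called, 24.3% higher and 24.2% lower), and granulocytes had 7 higher and 1 lower than monocytes (49.9% of genes called, 23% higher and 26.9% lower). The comparisons with microglia share the microglia libraries, and the 2 with monocytes share those of monocytes. Other cell markers differed too. The sum of 5 dendritic cell markers was 219 to 2161 CPM in BMDM, against 10.9 to 35.6 CPM in microglia (5 of 5 higher on average). That of 4 epithelial markers was 12.5 to 82.2 CPM, against 0.171 to 4.75 CPM (3 of 4 higher). The sum of 7 microglia markers was 7176 to 15045.5 CPM in microglia and 1335 to 6573 CPM in BMDM. It was 1020 to 2033 CPM in monocytes and 298 to 2901 CPM in granulocytes. The part of these markers was not tested.

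For Jun, the lowest, median and highest of the 10 BMDM libraries were 276, 655 and 939.9 CPM and those of the 9 monocyte libraries 151, 436 and 947 CPM, against 836, 1441 and 3220.4 CPM in the 10 microglia libraries. The log2 fold change was -1.39 ± 0.25 in BMDM and -1.58 ± 0.31 in monocytes (SE; edgeR adjusted p = 2.78e-04 and 2.77e-04). In granulocytes Jun had 62.4, 1245 and 1914 CPM, against 151, 436 and 947 CPM in monocytes, 1.16 ± 0.42 on the log2 scale (SE; adjusted p = 0.0248, edgeR). The lowest granulocyte value belongs to small-stage library 1, in which Fosb and Hspa1a also had 1 and 2 raw counts, and which had under 10000 genes with a count. That call was lost in 4 of 25 settings, of which 2 left out 1 library, small-stage monocyte 4 or granulocyte 2.

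Egr1 had 209, 963 and 2474 CPM (lowest, median, highest) in BMDM and 260.4, 418 and 1488 CPM in monocytes, against 2049, 2776 and 5203 CPM in microglia, at -1.56 ± 0.33 and -2.23 ± 0.35 (log2, SE; edgeR adjusted p = 0.00114 and 3.33e-05). No monocyte library reached the lowest microglia library. Granulocytes had 1217, 3829 and 7020.1 CPM, against 260.4, 418 and 1488 CPM in monocytes, 2.81 ± 0.40 (log2, SE; adjusted p = 6.05e-06, edgeR). Ier2 followed the same order, at -0.59 ± 0.20 in BMDM and -1.04 ± 0.21 in monocytes relative to microglia, and 1.47 ± 0.29 in granulocytes relative to monocytes (log2, SE). The BMDM call of Ier2 was lost in 9 of 27 settings, 7 of which left out a single library, while in granulocytes it held in all 24 settings that gave an adjusted p.

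Dusp1 had 3458, 9532 and 10547 CPM in granulocytes, against 1411, 2798 and 4266 CPM in monocytes (lowest, median, highest), and only the ribosomal-high small-stage granulocyte library 4 fell within the range of monocytes. Its log2 fold change was 1.93 ± 0.25 (SE; edgeR adjusted p = 2.26e-06). Ier3 had 772, 1046 and 1731 CPM in granulocytes, against 440.3, 720.3 and 916 CPM in monocytes, and monocytes in turn were 0.99 ± 0.21 (log2, SE) above microglia, which had 190.4, 373 and 601 CPM. Junb (1.54 ± 0.26) and Atf3 (0.73 ± 0.22) were higher in granulocytes than in monocytes too (log2, SE; edgeR adjusted p = 5.76e-05 and 0.00909), and without a filter on low counts Atf3 was not called. In monocytes Atf3 was -0.52 ± 0.19 relative to microglia (log2, SE; edgeR adjusted p = 0.0256), a call lost in 3 of 26 settings, among them leaving out small-stage monocyte 1 or large-stage microglia 4. Fosb ran the other way. It had 0.459, 31.9 and 78.9 CPM in granulocytes, against 59.2, 91.9 and 173 CPM in monocytes, and 91.8, 178 and 250.0 CPM in microglia. Its log2 fold change was -0.79 ± 0.21 in monocytes relative to microglia and -1.19 ± 0.49 in granulocytes relative to monocytes (SE; edgeR adjusted p = 0.00377 and 0.0475), and this last call was lost in 15 of 25 settings.

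Fos was more even. It had 2501 ± 1210.0 CPM in BMDM, 2269 ± 924 CPM in monocytes and 2932 ± 1580.5 CPM in granulocytes, beside 3489 ± 1204 CPM in microglia (SD, n = 10, 9, 9 and 10), and no comparison between populations called it. The adjusted p of Fos in monocytes relative to microglia was 0.0514 (edgeR, log2 fold change -0.58 ± 0.24, SE), and it passed in 14 of 26 other settings, RLE scaling and DESeq2 among them. In granulocytes relative to monocytes Fos passed as higher in 5 other settings. Among them were RLE scaling (log2 fold change 1.62, edgeR adjusted p = 0.0343) and leaving out ribosomal-high libraries (0.98, edgeR adjusted p = 0.0334). Hspa1a was called in none of the 3 comparisons, with 103 ± 91.0 CPM in BMDM, 109 ± 118 CPM in monocytes, 101 ± 107 CPM in granulocytes and 112 ± 58.3 CPM in microglia (SD, same n). Among the other immediate early genes, 4 rose and 9 fell in BMDM, and 5 rose and 10 fell in monocytes, relative to microglia. Nr4a2 and Rhob, a small GTPase, moved in opposite directions: Rhob stood at -1.94 ± 0.33 and -2.90 ± 0.31, and Nr4a2 at 3.15 ± 0.47 and 3.57 ± 0.44 (log2, SE). In granulocytes relative to monocytes 20 rose and 3 fell, with Klf2 at 3.24 ± 0.37, Dusp6 at 1.97 ± 0.26 and Klf4, a transcription factor of monocytes, at -4.51 ± 0.51. The heat shock list had 0 higher and 2 lower in BMDM and 0 and 3 in monocytes, both including the co-chaperone Dnajb1 (-1.11 ± 0.16 and -1.57 ± 0.14), and 1 higher (Dnajb1, 1.30 ± 0.29) and 5 lower in granulocytes.

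**Figure D3:**
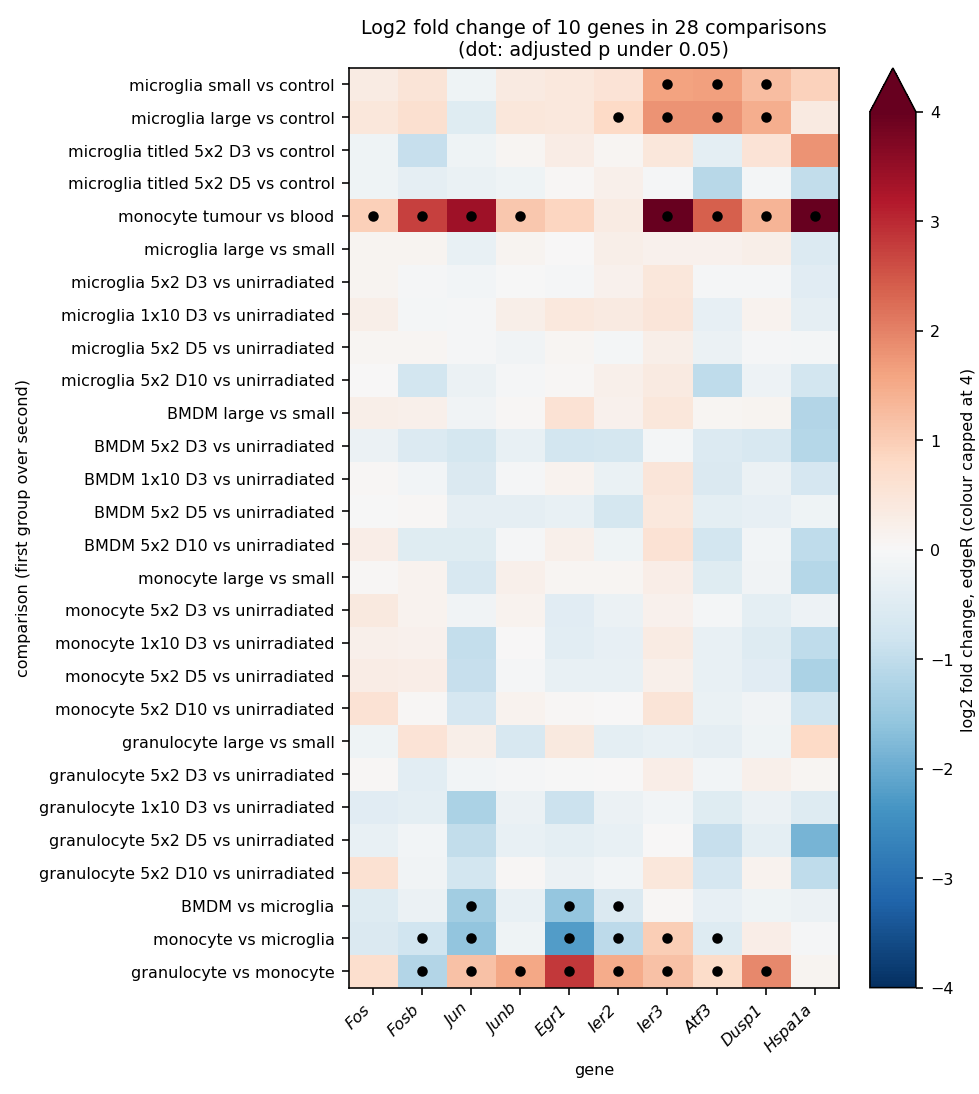
Colour gives the edgeR log2 fold change of each of the 10 genes (columns) in 28 comparisons (rows, first group over second), capped at 4, and dots mark an adjusted p under 0.05. Dots are confined to 6 rows, those of small-stage and large-stage against tumour-free microglia, tumour against blood monocytes and the 3 between populations.

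Tumour stage and radiotherapy left the 10 genes without a call. Between large and small stage, 0 of 40 tests over the 4 populations passed in edgeR and 0 had an unadjusted p under 0.05, where 0% of all genes were called in microglia, BMDM and monocytes and 0.0141% in granulocytes. DESeq2 called 1, Ier2 in granulocytes (-1.78 on the log2 scale), and edgeR with RLE scaling 1, Junb in granulocytes (-2.11), where RLE called 14 genes of all as higher and 1639 as lower. The log2 fold changes ran over -1.18 to 0.80, with a median SE of 0.35. Between irradiated and unirradiated cells, the mean of both stages, 0 of 160 tests in 16 comparisons passed in edgeR and 0 in DESeq2. Few genes of any kind were called there: 0.0607% in microglia at day 3 and 0.0354% at day 5 after 5 doses of 2 Gy, 0.101% at day 3 after 10 Gy, 0.00506% at day 10, 0.0063% in BMDM at day 3 after 10 Gy and 0% in the remaining 11. At an unadjusted p under 0.05 there were 12 of 160, of which 11 were lower and 1 higher in irradiated cells. That is 7.50% of the tests on the 10 genes, 6.88% as lower, beside 5.11% and 3.18% of the tests on all genes. The interactions that compare these changes between microglia and BMDM called 0 of 40 in edgeR and in DESeq2, with 1 at an unadjusted p under 0.05 (0.00516% of all genes called at day 3 after 5 doses of 2 Gy and 0% in the other 3). A missed threshold does not show that levels were the same: the median SE over the radiotherapy tests was 0.34 and the largest 1.30 (log2). The other immediate early genes had 0 calls of 396 tests too, with 68 lower and 7 higher at an unadjusted p under 0.05, 18.9% of them beside 5.11% of all genes. Of the heat shock genes 0 of 156 were called, with 10 lower and 3 higher at that level. In the stage comparisons both lists had 0 calls (3 of 99 and 2 of 39 at an unadjusted p under 0.05).

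The fitted log2 fold changes of Jun and Atf3 in irradiated cells were below 0 in 16 of 16 comparisons each, those of Hspa1a in 15 and of Dusp1 in 13, while those of Ier3 were below 0 in 2 and of Fos in 4. These comparisons share their unirradiated libraries within a population, so their signs are not independent. The median log2 fold change was -0.54 for Jun, -0.36 for Atf3 and 0.34 for Ier3, with median SEs of 0.37, 0.31 and 0.32. In granulocytes 3 days after 10 Gy, Jun had 259, 359.7 and 611 CPM, against 62.4, 1245 and 1914 CPM (lowest, median, highest) without radiotherapy, -1.28 ± 0.54 (log2, SE; edgeR adjusted p = 0.772). In monocytes at day 5 after 5 doses of 2 Gy, Jun had 193, 259.7, 294 and 377 CPM, against 151, 436 and 947 CPM in unirradiated monocytes, -0.93 ± 0.34 (log2, SE; adjusted p = 0.508, edgeR). Atf3 in microglia at day 10 had 657, 861 and 1379 CPM, against 1004, 1900.4 and 3534 CPM in unirradiated microglia, -1.01 ± 0.33 (log2, SE; edgeR adjusted p = 0.812). All 3 values of Atf3 lie in the lower part of the unirradiated range or under it. In granulocytes at day 5 the 4 values of Atf3 were 546, 739, 1005 and 1612 CPM, against 840.5, 1641 and 2626 CPM in unirradiated granulocytes, -0.94 ± 0.33 (log2, SE; edgeR adjusted p = 0.519).

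**Figure D4:**
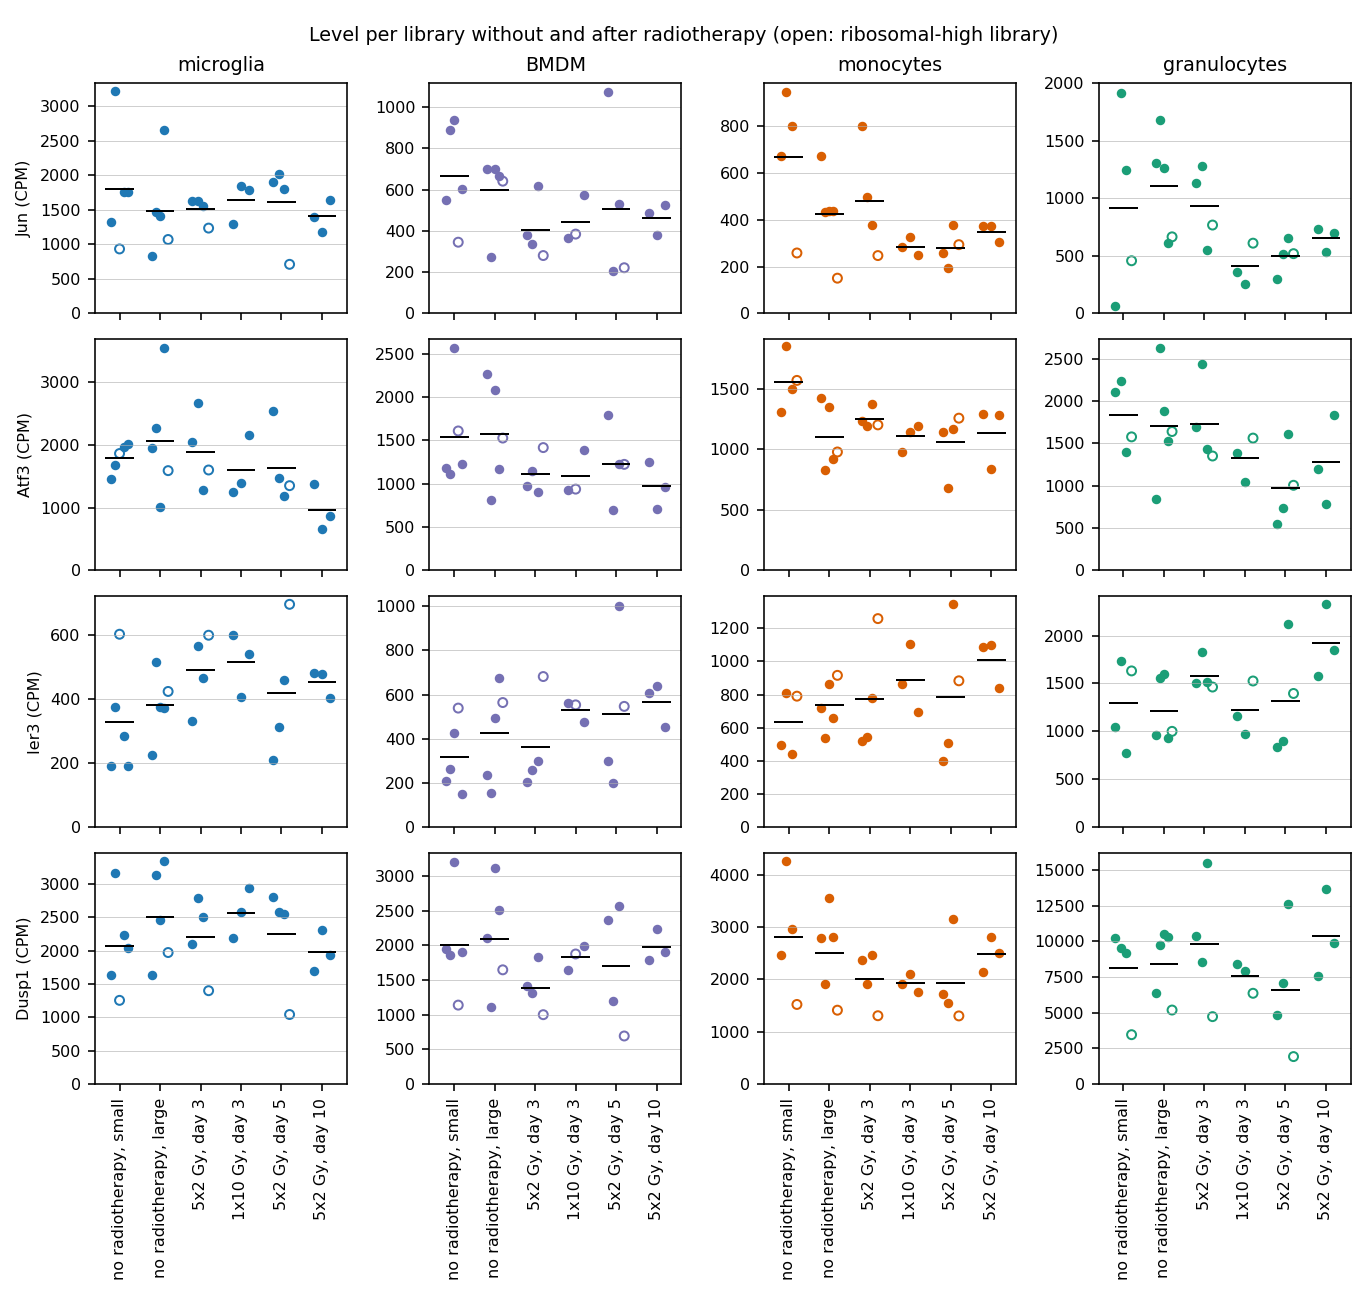
Points give the CPM of Jun, Atf3, Ier3 and Dusp1 (rows) in each library of the 4 populations (columns) without radiotherapy and after it, lines give group means, and open circles are ribosomal-high libraries. Ranges of irradiated and unirradiated libraries overlap for most panels and times, and open circles of Dusp1 lie at the bottom of most groups.

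Libraries of one group differed among themselves in these genes, and part of this spread went with the ribosomal share. In the 20 ribosomal-high libraries Dusp1 was below every other library of its group in 15 and above in 1, and Ier2 was below in 11. In BMDM at day 5, for example, the ribosomal-high library had 693 CPM of Dusp1, with 1201 to 2568 CPM in the other 3, at ribosomal shares of 1.17% and 0.412% to 0.481%. The mean log2 difference between these libraries and the rest of their groups was -0.71 for Dusp1, -0.52 for Jun, -0.34 for Junb, -0.34 for Ier2 and -0.20 for Egr1. Ier3 and Fos went the other way, at 0.64 and 0.36, and Ier3 was above the mean of the others in 18 of 20. Atf3 (0.15), Fosb (0.15) and Hspa1a (0.050) were near 0. No p is given, since these libraries were picked by a value measured in them, and the reason for the pattern was not tested. With a term for these libraries in the fit, the counts of called genes were within 1 of those given above in every comparison.

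**Figure D5:**
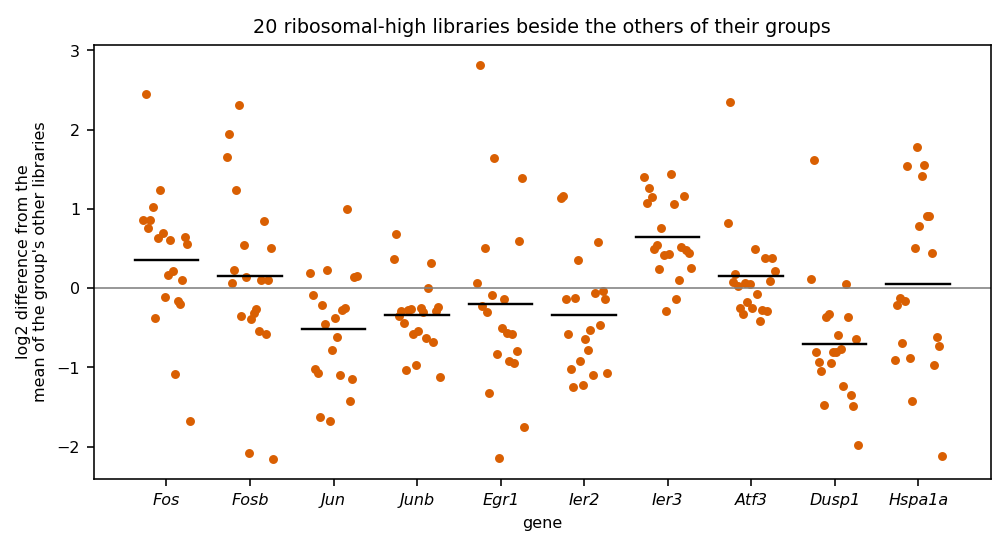
Each point is one of the 20 ribosomal-high libraries, placed by its log2 difference from the mean of the other libraries of its group (vertical axis, on log2(CPM + 1)) for each of the 10 genes, and lines are means. Dusp1, Jun, Junb and Ier2 lie mostly below 0 and Ier3 mostly above it.

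As a description, in which the values of a library share its depth, the members' deviations from their group means were correlated positively in 42 of 45 pairs, with a median Pearson r of 0.31 over all libraries. The closest pairs were Junb and Ier2 (0.87), Junb and Dusp1 (0.77), and Ier2 and Dusp1 (0.75). Pairs below 0 were Ier2 and Hspa1a (-0.25), Junb and Hspa1a (-0.11), and Fos and Jun (-0.086). Over the 28 group means, 38 of 45 pairs were positive, with a median of 0.47. Among 9175 genes with a mean of at least 10 CPM, those closest to the average of the 10 members over the 28 group means were Socs3 (r = 0.93), Runx1 (0.93), Mcfd2 (0.92), Wsb1 (0.91) and Zfp36 (0.91). Among the closest within groups were Zfp36 (0.75), an RNA-binding protein that shortens the life of short-lived mRNAs, Rhob (0.68), Ppp1r15a (0.66) and Zbtb7a (0.60). Zfp36 and Btg2 were among the 10 closest on both measures.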

How the data were processed

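RNA-seq libraries of sorted myeloid populations were compared from a table of read counts per gene, as deposited by the authors. The values are raw counts with no normalization, judged from the file, and per the submitters' processing notes GRCm38 was the build, with TopHat2 2.0.14, HTSeq, FastQC and DESeq2 1.18.1 as tools of unstated role. No source used here says whether counting was stranded. GENCODE M21 held 49326 of the 49585 gene IDs, and positions and exon lengths were taken from it.

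Samples were grouped by their titles and characteristics. Tests used edgeR 4.0.16 (quasi-likelihood F-test, one mean per group, TMM scaling, filterByExpr with a minimum count of 10 and a total of 15) in R 4.3.3 with limma 3.58.1, with Benjamini-Hochberg adjustment over all genes tested and a threshold of 0.05. Irradiated groups were set against the mean of both unirradiated stages of their population. The fit was checked on simulated counts, in which a small set of genes was raised and all others kept the same mean in every group. In small-stage against tumour-free microglia (18431 genes) 75% of genes changed 4-fold and 35% of those changed 2-fold were found. For tumour against blood monocytes (21409 genes) the shares were 76% and 10%. Granulocytes against monocytes (14033 genes) gave 60% and 4%, and large against small granulocytes (13792 genes) 17% and 2%. In several comparisons of the data many genes differed and the median gene shifted, so these shares do not carry over to them. Alternatives were RLE scaling, no filter, DESeq2 1.42.0, the replicate number as a block, only the compared groups, either stage alone as the comparison for irradiated cells, and each library left out. Added after seeing the data were leaving out doubtful or ribosomal-high libraries and a term for ribosomal-high libraries.

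The 10 genes are named throughout, and from 2 further lists, 25 other immediate early genes and 10 heat shock genes, up to 4 called genes per list and comparison with the smallest adjusted p. The 10 genes and all lists, marker lists included, were chosen with earlier results of these data known. Likeness used log2(CPM + 1) and genes of at least 10 CPM. Tables and figures were made with Python 3.11.15, pandas 2.3.3, numpy 2.4.6 and matplotlib 3.10.9.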

Additional observations from a re-analysis of the deposited data

Results flagged for a closer look

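In 22 of 180 sets of values, 1 gene in a group of 4 or 5 libraries, the highest or lowest library lay farther from its neighbour than Dixon's critical value allows. The usual rate of about 1 in 20 assumes independent, normally distributed values. These are CPM without a log, and genes of a library move together, so the 22 cannot be read against that rate. Small-stage microglia 2 was high in Junb (2822 CPM, others 1274 to 1398), Egr1 (5203 CPM, others 2515 to 2599) and Ier2 (1470.1 CPM, others 682 to 780.4). Large-stage microglia 4 was high in Hspa1a (224 CPM, others 43.9 to 79.7). Microglia 1 at day 3 after 5 doses of 2 Gy was low in Fos (2955 CPM, others 3972 to 4069). Microglia 4 at day 5, a ribosomal-high library, was low in Jun (712 CPM, others 1808 to 2027), Junb (1068 CPM, others 1669 to 1741) and Dusp1 (1042 CPM, others 2555 to 2808).

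Large-stage BMDM 2 was low in Jun (276 CPM, others 641 to 700.2), and BMDM 1 at day 5 was high in Hspa1a (247 CPM, others 11.7 to 51.6). Small-stage monocyte 4 was high in Fos (3656 CPM, others 1712 to 1899). Small-stage monocyte 2 was high in Egr1 (1488 CPM, others 280.0 to 423) and Hspa1a (412 CPM, others 46.4 to 98.0). Monocyte 3 at day 5 was high in Ier2 (555 CPM, others 296 to 337). Blood monocyte 4 was high in Fosb (32.0 CPM, others 5.41 to 9.35), Egr1 (946 CPM, others 84.5 to 211) and Atf3 (585 CPM, others 104 to 133).

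Small-stage granulocyte 1 was high in Fos (4902 CPM, others 1856 to 2138), and granulocyte 4 of that group, ribosomal-high, was low in Dusp1 (3458 CPM, others 9194 to 10248). Granulocyte 2 at day 3 after 5 doses of 2 Gy was high in Ier3 (1831 CPM, others 1462 to 1513) and Hspa1a (341 CPM, others 4.95 to 56.2). Granulocyte 3 at day 5 was high in Hspa1a (91.1 CPM, others 0.272 to 12.8). Of the 22, 5 concern Hspa1a, and the causes were not tested.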

How the results depend on the processing

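Counts of called members were within 1.5 times of those reported, or 0 where 0 were reported, in 740 of 749 alternative fits. Most of these fits belong to comparisons without a call, where this means only that 0 stayed 0. The exceptions were 1 called member instead of 3 in small-stage against tumour-free microglia when only these groups were fitted, 1 instead of 0 in DESeq2 for the microglia titled 5x2 day 3 and for those titled day 5, 3 instead of 8 in tumour against blood monocytes without the doubtful libraries, 1 instead of 0 without a filter in monocytes at day 5 after 5 doses of 2 Gy (Hspa1a), and 1 instead of 0 in large against small granulocytes under RLE (Junb) and in DESeq2 (Ier2). Leaving out 1 library gave 0 to 1 called members for the microglia titled 5x2 day 3 (1 without untreated library 4) and 0 to 1 for those titled day 5 (1 without untreated library 1). Of the alternative values of called members, 667 stayed past the threshold and 54 lost the call, and 1 changed sign, Fos in tumour against blood monocytes, at -0.24 without the doubtful libraries. In 39 cases a member without a call gained one under an alternative. DESeq2 gave no adjusted p for Fos, Junb and Ier2 in granulocytes against monocytes. The cause of these changes was not tested, except that fewer samples enter the fits of compared groups alone and of left-out libraries.

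Replicate numbers recur across groups, and no label says that a number marks a shared animal or day. Among unirradiated libraries, same-numbered pairs of populations did not deviate together throughout: the lowest correlation was -0.41, between small-stage microglia and BMDM, while in large-stage BMDM and monocytes the mean was 0.45 and 5 of 5 libraries correlated best with their own number. After 5 doses of 2 Gy they did at days 3 and 10, where all correlations were positive (lowest 0.18 and 0.14) and every library correlated best with its own number, 4 of 4 and 3 of 3 in each pair of populations. At day 5 it was 4 of 4 for microglia and BMDM but 2 of 4 for monocytes and granulocytes. Small-stage monocytes and granulocytes had 4 of 4, with a mean of 0.19 for the same numbers. Means for other numbers are left out: deviations sum to 0 within a group, so those means largely follow from the same-number means. These are hints from the data. The interactions at day 3 and day 10 set microglia beside BMDM of those days, each relative to unirradiated cells, and were not paired in the main fit. With the replicate number as a block, 3 members were called in small-stage and 4 in large-stage against tumour-free microglia, 0 in both groups titled 5x2, 8 in tumour against blood monocytes, 4 in BMDM and 6 in monocytes against microglia and 7 in granulocytes against monocytes, and 0 in the stage, radiotherapy and interaction comparisons. Under the block Fos was called in BMDM and in monocytes against microglia (edgeR adjusted p = 0.0369 and 0.0470), and Atf3 in monocytes against microglia and Jun in granulocytes against monocytes were not (0.116 and 0.0521).

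RLE and TMM scaling differed by over 0.1 (log2) at the median gene in 9 of 32 comparisons. In the microglia titled 5x2, higher genes were 20.5% of all calls under RLE for day 3 and 43.5% for day 5, beside 43.1% and 59.0% under TMM. Depth limits the lowest values most, as in small-stage granulocyte 1 and in blood monocytes, whose Hspa1a rests on 4 to 18 counts per library.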
